A study of Mus musculus with 8 samples.

Results

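The early components of complement examined here are 10 genes of the classical and alternative pathways down to C3. They encode the chains of C1q (C1qa, C1qb and C1qc), the proteases of C1 (C1ra and C1s1), C4 (C4b), C2 (C2), C3 (C3), factor B (Cfb) and factor D (Cfd). Each was found by its symbol through the Ensembl identifier of its row in the GENCODE M21 annotation. All 10 were present among the 49585 genes of the count table, and all 10 passed the low-count filter that left 22693 genes for testing.

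The study measured messenger RNA by sequencing in the whole pregnant mouse uterus, fetal tissue included, on day 8 of pregnancy. DT-labelled libraries came from Foxp3DTR females, 8 weeks old and mated with BALB/c males, that received 1 µg of diphtheria toxin into the peritoneum on days E1, E3, E5 and E7. PBS-labelled libraries came from Foxp3DTR females of the same age and mating that received saline on the same days, so both groups carried the toxin receptor allele and an allogeneic pregnancy. Each group held 4 libraries, replicates 1, 3, 4 and 5 labelled DT and replicates 1, 2, 4 and 6 labelled PBS. In the Foxp3DTR line the diphtheria toxin receptor is placed under control of Foxp3, a transcription factor that defines regulatory T cells, so that toxin kills the cells expressing it. The labels' protocol states a loss of 85% of regulatory T cells after 4 injections, and describes the injections both as daily and by the listed days.

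Complement is a cascade of plasma proteins that tags and lyses targets. In the classical pathway C1q binds an antibody or another surface ligand, C1r and C1s are activated in turn, and C1s cleaves C4 and C2 to form a C3 convertase. In the alternative pathway factor D cleaves factor B bound to C3b, which forms a second convertase that amplifies C3 cleavage. Most circulating complement is made in the liver, whereas C1q comes mainly from macrophages and dendritic cells, and factor D from adipocytes.

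C1qa, C1qb and C1qc lie side by side on the minus strand of chromosome 4 of GRCm38, at chr4:136895917-136898803, chr4:136880129-136886187 and chr4:136889804-136893065. RefSeq promoters (GRCm38.p6) were given for 6 of the 10 members, namely C1qb, C1qc, C1ra, C1s1, C3 and Cfd. The 250 bases before the RefSeq start of C1qb and of C1qc, at chr4:136886201-136886450 and chr4:136892915-136893164 on the minus strand, are shown because these neighbouring genes had the levels nearest to those of C1qa across libraries. They are printed in lower case with nothing capitalised, because neither motif searched below was found in them. RefSeq and GENCODE starts differ: that of C1qb lies 13 bases before the GENCODE gene, whereas that of C1qc lies 151 bases inside it, so the last 151 bases shown for C1qc lie within its GENCODE gene.
C1qb: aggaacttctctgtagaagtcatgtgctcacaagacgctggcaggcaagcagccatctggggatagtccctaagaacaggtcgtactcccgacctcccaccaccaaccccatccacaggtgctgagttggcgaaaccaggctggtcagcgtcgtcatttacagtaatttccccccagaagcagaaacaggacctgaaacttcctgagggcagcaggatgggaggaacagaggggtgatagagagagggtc
C1qc: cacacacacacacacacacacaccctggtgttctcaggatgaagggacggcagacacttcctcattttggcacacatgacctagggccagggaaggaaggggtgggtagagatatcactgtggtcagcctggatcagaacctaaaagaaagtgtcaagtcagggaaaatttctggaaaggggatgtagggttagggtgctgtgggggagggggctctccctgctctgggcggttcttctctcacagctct
Both strands of each promoter, from 250 bases before to 50 bases after the RefSeq start, were searched for the core of the interferon-stimulated response element (GAAA, any 2 bases, GAAA) and for the gamma-activated site (TTC, any 3 bases, GAA). The first motif was in none of the 6 member promoters and in 3.44% of all 32851 promoters of the same length. The second was in 8.3% of all promoters and, among the members, in C1ra, where TTCCCTGAA began at position 33 after the RefSeq start, which itself lies 216 bases inside the GENCODE gene.

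Total counts were between 94794512 and 109847604 per library, a 1.16-fold spread, and did not differ detectably between groups (two-sided exact permutation test, p = 0.714). Levels below are CPM, a gene's counts per 1000000 counts of its library, scaled by the trimmed mean of M values (TMM), and "called" means an adjusted p under 0.05 in edgeR's quasi-likelihood test with Benjamini-Hochberg adjustment over all tested genes. Foxp3 was looked at as a check of the labels. It had 5.12, 5.10, 5.72 and 5.69 CPM in DT-labelled libraries and 4.89, 4.36, 5.44 and 4.86 CPM in PBS-labelled libraries. It was not lower in DT-labelled libraries (log2 fold change 0.15, adjusted p = 0.595, edgeR), and 31.5% of its exon bases overlap other genes. In PBS-labelled libraries Foxp3 averaged 4.89 CPM, above each of 8 T cell markers, among them Lck (3.98), Cd4 (0.67) and Cd3e (0.27). How much of the Foxp3 count came from regulatory T cells was not tested, so these values cannot show whether those cells were lost. Hbegf, the mouse counterpart of the toxin receptor, had a log2 fold change of -0.31 (adjusted p = 0.571, edgeR). Groups are therefore called by their labels throughout. Defining markers of decidual stroma and of smooth muscle were present in all 8 libraries, with summed levels of 4478 to 11203 and 1255 to 2895 CPM in DT-labelled libraries and 8086 to 14114 and 1211 to 2434 CPM in PBS-labelled libraries. Summed yolk sac markers were 15.1 to 33.8 CPM in DT-labelled libraries and 96.2, 231, 23.1 and 32.8 CPM in PBS-labelled libraries (replicates 1, 2, 4 and 6), so PBS-labelled replicates 1 and 2 stood apart. DT-labelled replicate 1 stood apart too. Of the 8 libraries it had the lowest decidual stroma sum, 4478 CPM, and the highest smooth muscle sum, 2895 CPM. In the library titles PBS-labelled replicates 1 and 2 carry the tag S1, and PBS-labelled replicates 4 and 6 the tag S2. The DT-labelled libraries carry other tags, so no tag spans both groups. What the tags stand for is not given in the sources used here, and their part in these values was not tested.

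The chains of C1q were higher in DT-labelled uteri. C1qa and C1qb rose by 1.68-fold and 1.63-fold, and C1qc was higher by 1.59-fold without passing the threshold. Both calls were lost in 7 of the 8 fits that left out 1 library, although the fold changes stayed close to these values. Across the 10 members, 2 were called higher and none lower, where 0.322% of all tested genes were called higher and 0.00441% lower. Before adjustment, 8 of the 10 were higher with p under 0.05 and none lower, against 4.72% and 3.98% of all tested genes. For 5 members every DT-labelled library lay above every PBS-labelled one, which held for 3.33% of all tested genes, and the reverse held for no member and 1.73% of genes. A positive log2 fold change was found for 9 members and for 51.4% of all tested genes. The members' median log2 fold change was 0.63, against 0.01 for all tested genes. Members were chosen with earlier results of these data known, and the C1q chains varied together. These comparisons with all genes are therefore descriptions and no test of the group.

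C1q is the recognition subunit of C1, built from A, B and C chains encoded by these neighbouring genes. In DT-labelled uteri C1qa had 58.4, 45.0, 44.7 and 49.3 CPM (replicates 1, 3, 4 and 5), against 31.7, 29.6, 29.5 and 26.9 CPM in PBS-labelled uteri (replicates 1, 2, 4 and 6), and later values keep this order of replicates. All 4 DT-labelled libraries lay above all 4 PBS-labelled ones, and DT-labelled replicate 1 was the highest. The means were 49.4 ± 6.41 CPM in DT-labelled libraries and 29.4 ± 1.94 CPM in PBS-labelled libraries (SD, n = 4 libraries each). This is a log2 fold change of 0.75 ± 0.10 (SE, 95% confidence interval 0.52 to 0.97), or 1.68-fold, with adjusted p = 0.0353 (edgeR).

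C1qb measured 59.3, 44.4, 47.3 and 47.7 CPM in DT-labelled libraries, against 34.0, 31.0, 30.3 and 27.0 CPM in PBS-labelled libraries. The groups did not overlap, and the libraries fell in nearly the order seen for C1qa. C1qb rose by a log2 fold change of 0.70 ± 0.11 (95% confidence interval 0.46 to 0.95), or 1.63-fold, with adjusted p = 0.0491 (edgeR). That call held in 4 of 16 alternative settings, and with limma voom the adjusted p was 0.0560.

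C1qc, the third chain, measured 60.9, 45.9, 45.7 and 47.5 CPM in DT-labelled libraries and 35.5, 30.9, 31.7 and 27.8 CPM in PBS-labelled libraries. Here too the groups did not overlap. The log2 fold change was 0.67 (95% confidence interval 0.41 to 0.93), and the adjusted p of 0.0761 (edgeR) missed the threshold. None of the 75-base windows of the C1q transcripts was found in another gene, and none of their exon bases overlap another gene.

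The chains kept close to a fixed proportion. The count of C1qb divided by that of C1qa was 0.966 to 1.06 in DT-labelled libraries and 1.00 to 1.07 in PBS-labelled libraries. The count of C1qc divided by that of C1qa was 0.962 to 1.04 in DT-labelled libraries and 1.03 to 1.12 in PBS-labelled libraries. These ratios do not depend on scaling, the groups overlapped in both, and neither difference passed the test, with log2 differences of -0.04 (exact permutation p = 0.286, adjusted over 5 ratios 0.571) and -0.08 (p = 0.0857, adjusted 0.429). The second difference exceeded the SD within each group, 0.050 in DT-labelled and 0.053 in PBS-labelled libraries. The smallest p that 4 against 4 libraries allow is 0.0286. Of all genes compared by the root mean square difference of their centred log2 levels over the 8 libraries, those nearest to C1qa were C1qb (0.05) and C1qc (0.06), then Lpxn (0.08), Mpeg1 (0.09) and Pld4 (0.11). Mpeg1 encodes perforin-2, a pore-forming protein of macrophages.

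Macrophage markers were read beside C1q. Of 15 markers 1 was called higher, Aif1 (log2 fold change 0.96, adjusted p = 0.0324, edgeR), against 0.322% of all tested genes. The markers' summed level was 408 to 448 CPM in DT-labelled libraries and 363 to 396 CPM in PBS-labelled libraries. C1qa divided by that sum was 0.143, 0.106, 0.0997 and 0.116 in DT-labelled libraries, against 0.0800, 0.0760, 0.0812 and 0.0709 in PBS-labelled libraries. By that measure the groups did not overlap. Csf1r, Lyve1 and Mrc1 were the most abundant markers and weigh most in the sum. Against single markers the groups overlapped for 13 of the 15, Csf1r, Lyve1 and Mrc1 included. They did not for Mertk, an engulfment receptor, where C1qa divided by the marker was 1.06 to 1.47 in DT-labelled libraries and 0.537 to 0.903 in PBS-labelled libraries. Nor did they for Cd14, a lipopolysaccharide co-receptor, at 5.89 to 7.15 in DT-labelled libraries and 2.77 to 4.22 in PBS-labelled libraries. An overlapping example was Adgre1, which encodes F4/80, at 1.78 to 2.61 in DT-labelled libraries and 1.76 to 2.39 in PBS-labelled libraries. The markers themselves differed in sign, with 11 positive and 4 negative log2 fold changes (Cd68, Cd14, Mertk and Cd163). More macrophages and more C1q RNA per macrophage cannot be told apart in whole tissue, and the part of these markers in the C1q difference was not tested.

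**Figure D1:**
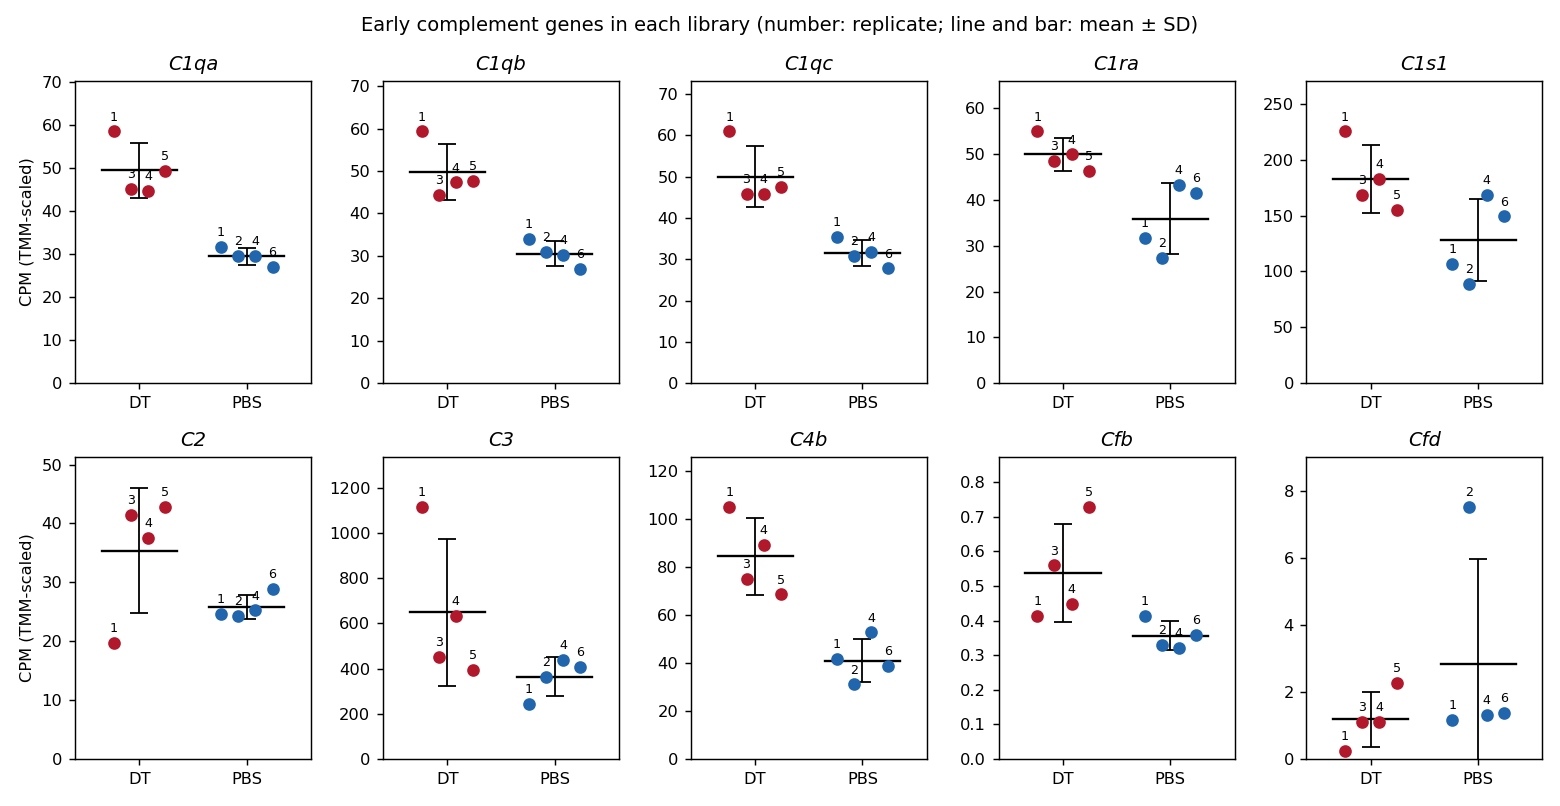
TMM-scaled CPM of the 10 early complement genes, 1 panel a gene with its own axis from 0, in the 4 DT-labelled libraries (left) and the 4 PBS-labelled libraries (right). Numbers are replicates, lines and bars the mean ± SD (the Cfd bar for PBS is clipped at 0). The groups do not overlap for C1qa, C1qb, C1qc, C1ra and C4b, and PBS-labelled replicate 2 stands alone at 7.52 CPM for Cfd.

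C1r and C1s are the serine proteases carried by C1q, and neither gene was called. C1ra (chr6:124512405-124523443, plus strand) measured 54.9, 48.6, 49.9 and 46.3 CPM in DT-labelled libraries and 31.7, 27.3, 43.3 and 41.5 CPM in PBS-labelled libraries. The groups did not overlap, but PBS-labelled replicates 4 and 6 came close to the DT-labelled range. Its log2 fold change was 0.47 ± 0.15 (unadjusted p = 0.0121, adjusted p = 0.487, edgeR).

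C1s1 (chr6:124530345-124542359, minus strand) measured 225, 169, 183 and 155 CPM in DT-labelled libraries and 107, 89.1, 168 and 149 CPM in PBS-labelled libraries. The groups overlapped, since PBS-labelled replicate 4 exceeded DT-labelled replicate 5. Its log2 fold change was 0.51 ± 0.21 (adjusted p = 0.564, edgeR). The count of C1s1 divided by that of C1ra was 3.36 to 4.10 in DT-labelled libraries and 3.27 to 3.89 in PBS-labelled libraries, a log2 difference of 0.05 (exact permutation p = 0.571, adjusted 0.571). For both proteases the lowest libraries were PBS-labelled replicates 1 and 2, those with the most yolk sac transcripts. Without these replicates the log2 fold changes were 0.23 for C1ra and 0.20 for C1s1. Sequence was shared with neighbouring copies: 42.4% of 75-base windows of C1ra were found in another gene, mostly C1rb, and 24.8% of those of C1s1, so part of their reads may be assigned to a copy. An antisense gene, Gm16567, covers 18.4% of the exon bases of C1s1 and had a log2 fold change of 0.54. Whether counting used strand is not given in the sources used here.

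C4b, the substrate of C1s, had the highest log2 fold change of the 10 members without being called. It lies at chr17:34728380-34743882 on the minus strand and measured 105, 75.1, 89.1 and 68.5 CPM in DT-labelled libraries, against 41.6, 31.0, 52.7 and 38.8 CPM in PBS-labelled libraries. The groups did not overlap. The means were 84.4 ± 16.2 CPM in DT-labelled libraries and 41.0 ± 8.97 CPM in PBS-labelled libraries (SD, n = 4 each). The log2 fold change of 1.04 ± 0.18, or 2.06-fold, had an unadjusted p of 0.000439 and an adjusted p of 0.0881 (edgeR). Among 75-base windows of C4b, 22.7% were shared with its copy C4a, which encodes a closely related protein and had a log2 fold change of -0.03.

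C2, which joins C4b in the classical C3 convertase, lies at chr17:34862604-34898265 on the minus strand. It measured 19.8, 41.5, 37.6 and 42.8 CPM in DT-labelled libraries and 24.7, 24.4, 25.2 and 28.8 CPM in PBS-labelled libraries. DT-labelled replicates 3, 4 and 5 lay above every PBS-labelled library, whereas DT-labelled replicate 1 was the lowest of all 8. Over all libraries its log2 fold change was 0.46 ± 0.22 (adjusted p = 0.571, edgeR). Without DT-labelled replicate 1 it was 0.66 and C2 was called. In that fit 4 members were called, C1qa, C1qb, C1qc and C2, where 0.502% of all tested genes were called higher.

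C3 is the protein on which the pathways converge, and its gene was the most abundant member. It lies at chr17:57203970-57228136 on the minus strand and measured 1114, 450, 633 and 395 CPM in DT-labelled libraries, against 243, 363, 440 and 407 CPM in PBS-labelled libraries. DT-labelled replicate 1 was far above the rest, and DT-labelled replicate 5 fell below PBS-labelled replicates 4 and 6. For C3 the log2 fold change was 0.84 ± 0.34 (95% confidence interval 0.06 to 1.62, adjusted p = 0.562, edgeR), and without DT-labelled replicate 1 it was 0.44. The count of C4b divided by that of C3 was 0.0942 to 0.173 in DT-labelled libraries and 0.0854 to 0.172 in PBS-labelled libraries, a log2 difference of 0.30 (exact permutation p = 0.371, adjusted 0.571).

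Neither alternative pathway protease was called. Cfb (chr17:34856374-34862518, minus strand), which encodes factor B, measured 0.412, 0.560, 0.449 and 0.728 CPM in DT-labelled libraries and 0.414, 0.330, 0.321 and 0.359 CPM in PBS-labelled libraries. The groups overlapped only through replicate 1 of each group, and the counts behind these values were 32 to 75 reads per library. A log2 fold change of 0.59 ± 0.22 resulted (adjusted p = 0.553, edgeR). The annotation places 79.5% of Cfb exon bases inside a second gene, Gm20547, which had no count in any library, and 46.9% of C2 exon bases overlap other genes. How reads in such overlaps were counted is not given in the sources used here, so the levels of Cfb and C2 cannot be set against those of other genes. The log2 ratio of Cfb to C2 differed by 0.17 between DT- and PBS-labelled libraries (exact permutation p = 0.486, adjusted 0.571).

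Cfd (chr10:79890853-79892655, plus strand), which encodes factor D, also known as adipsin, was the member with a negative log2 fold change. It measured 0.249, 1.11, 1.11 and 2.26 CPM in DT-labelled libraries and 1.15, 7.52, 1.31 and 1.37 CPM in PBS-labelled libraries. The groups overlapped, with DT-labelled replicate 1 the lowest and PBS-labelled replicate 2 far above all others. The log2 fold change of -1.27 ± 0.80 (95% confidence interval -3.10 to 0.57, adjusted p = 0.579, edgeR) was -0.12 without PBS-labelled replicate 2. Summed adipocyte markers, 8 of 9 of which were tested, were 62.8, 119, 108 and 121 CPM in DT-labelled libraries and 212, 380, 113 and 153 CPM in PBS-labelled libraries, with the extremes in the same libraries. Fabp4 made up most of these sums, with 38.7 CPM in DT-labelled replicate 1 and 342 CPM in PBS-labelled replicate 2. Adipoq and Cidec, at low levels, were also lowest in the first of these libraries (0.13 and 0.062 CPM) and highest in the second (2.95 and 1.64 CPM). Of the 8 markers tested, 5 had negative and 3 positive log2 fold changes. The positive ones were Plin1, Retn and Lipe, at 0.46, 0.41 and 0.26. Lipe, hormone-sensitive lipase, was highest in DT-labelled replicate 1 at 17.9 CPM and lowest in PBS-labelled replicate 2 at 12.3 CPM. The genes nearest to Cfd in pattern included Car3 (0.62) and Fabp4 (0.67), both abundant in adipocytes and both on that marker list. The part of adipocyte content in the Cfd values was not tested.

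**Figure D2:**
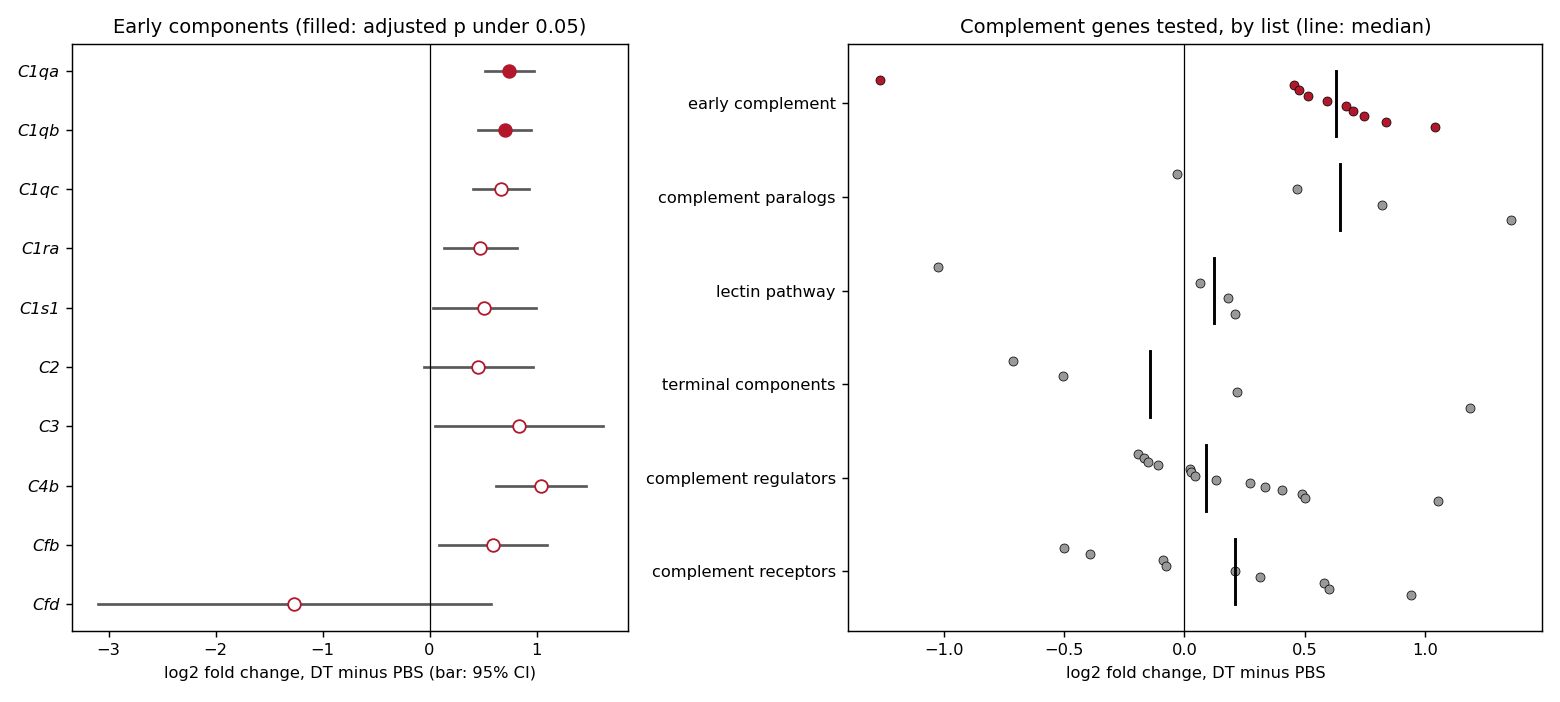
Log2 fold changes, DT minus PBS, of the 10 early components with 95% confidence intervals (left; filled points are called) and of all tested complement genes by list (right; lines are list medians). Of the early components 9 lie right of 0, with C4b at 1.04 and Cfd at -1.27.

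Per kilobase of exon, the mean levels in DT-labelled libraries were highest for C3 at 126 CPM per kb, then C1s1 at 58.5, C1qa at 47.5, C1qb at 45.7, C1qc at 25.9, C1ra at 16.7, C4b at 14.8 and Cfd at 1.28. In PBS-labelled libraries the order was the same, with 70.6 CPM per kb for C3, 41.0 for C1s1, 28.3 for C1qa, 28.1 for C1qb, 16.3 for C1qc, 12.1 for C1ra, 7.20 for C4b and 3.08 for Cfd. Neighbours in this order often overlapped: in PBS-labelled libraries C1qa had 25.9 to 30.5 and C1qb 24.8 to 31.2 CPM per kb. The paralogs C4a, C1rb and C1s2 averaged below 1 CPM per kb in both groups. C2 and Cfb were left out of this order because of the exon overlaps given above. The length used was all annotated exon bases of a gene, 1931 for C1qc and 1040 for C1qa. The place of C1qc below C1qa follows from that length, since their CPM before division were similar. C1ra, C1s1 and C4b share sequence with other genes, so their values may be too low and their places are uncertain.

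The libraries did not rank alike for all members. DT-labelled replicate 1 was the highest of the 8 for C1qa, C1qb, C1qc, C1ra, C1s1, C4b and C3, but the lowest for C2 and Cfd. The same library had the lowest summed interferon-gamma response genes among DT-labelled libraries, with 615, 1219, 1171 and 1407 CPM, against 479, 533, 363 and 435 CPM in PBS-labelled libraries. Of the 20 genes on that list 7 were called higher, against 0.322% of all tested genes. Among the 7 was Ciita, the master regulator of MHC class II (log2 fold change 1.39, adjusted p = 0.0175, edgeR). The GTPase genes Igtp (2.46, adjusted p = 0.0314, edgeR) and Irgm1 (1.64, adjusted p = 0.0314, edgeR) were called too. Ciita did not follow the sum, with 11.0, 8.25, 9.94 and 9.36 CPM in DT-labelled libraries, highest in replicate 1. Igtp and Irgm1 were lowest in that replicate among DT-labelled libraries, at 28.5 and 71.5 CPM. The genes nearest to C4b in pattern included Klra4, Nwd2, Itgax and H2-DMb1, with differences of 0.16 to 0.17, and those nearest to C3 were Tmem132c (0.11), Csf2rb2 (0.14), Pla2g7 (0.17), Tro (0.18) and Tnnt3 (0.19). Of 8 T cell markers 3 were called higher, against 0.322% of all tested genes. The T cell sums were 14.9 to 18.1 CPM in DT-labelled libraries and 5.27 to 8.20 CPM in PBS-labelled libraries. The part of these lists in the complement values was not tested.

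**Figure D3:**
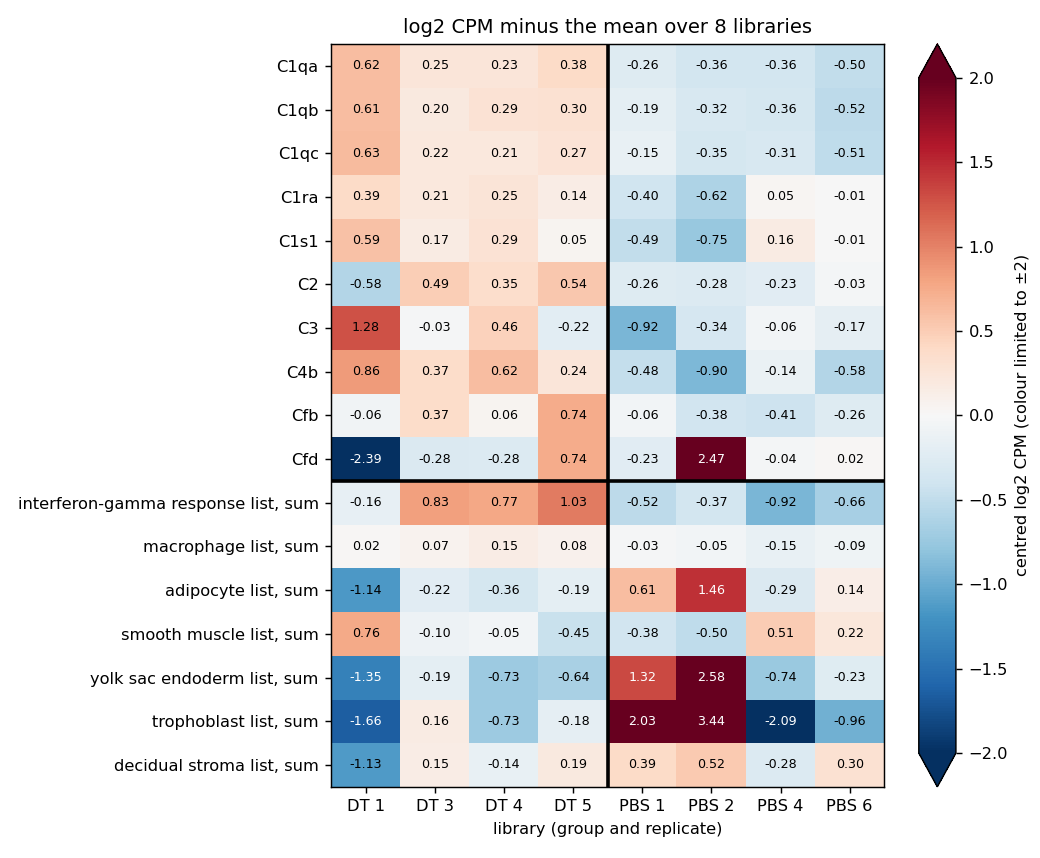
Centred log2 CPM (colour, limited to ±2) of each early complement gene and of the summed marker and response lists, by library, with the 4 DT-labelled libraries left of the 4 PBS-labelled ones. DT-labelled replicate 1 is high for C3 and low for C2 and Cfd, and PBS-labelled replicates 1 and 2 are high for the yolk sac and trophoblast lists.

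The other 44 listed complement genes gave 35 tested genes, of which edgeR called none, where 0.322% of all tested genes were called higher. With an unadjusted p below 0.05, 9 had higher levels and 1 a lower level, against 4.72% and 3.98% of all tested genes. DESeq2 called 1 of them, Itgax (1.06% of its genes higher), and limma voom none (0.225%). The median log2 fold change of the 35 was 0.18, against 0.01 for all tested genes. Without overlap of the groups, 7 lay above and 1 below, which held for 3.33% and 1.73% of all tested genes.

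Among the paralogs, 2 of 4 were higher at an unadjusted p under 0.05, against 4.72% of all tested genes. Those named were C1rl, at a log2 fold change of 0.47 ± 0.19, C1rb at 1.36 ± 0.56 and C1s2 at 0.82 ± 0.46, which was -0.045 without PBS-labelled replicates 1 and 2 and DT-labelled replicate 1. Of the lectin pathway, which enters the cascade through mannose-binding lectins and ficolins, 4 of 8 genes were tested. None passed the unadjusted threshold, which 4.72% of all tested genes passed with higher and 3.98% with lower levels. Masp1, a protease of that pathway, averaged 42.6 ± 27.9 CPM in DT-labelled libraries and 86.6 ± 53.0 CPM in PBS-labelled libraries (log2 fold change -1.02 ± 0.71). Fcna and Masp2 had log2 fold changes of 0.18 and 0.21, and 51.4% of Masp2 windows were shared with Tardbp. The signs of Masp1, Fcna and Masp2 reversed without the libraries that stood apart.

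Of the terminal components, which assemble the membrane attack complex, 4 of 7 were tested. C6 averaged 0.88 CPM in DT-labelled libraries and 0.39 CPM in PBS-labelled libraries (log2 fold change 1.18 ± 0.33, adjusted p = 0.396, edgeR). C7 averaged 2.23 CPM in DT-labelled libraries and 3.17 CPM in PBS-labelled libraries (-0.51 ± 0.17, adjusted p = 0.509). Hc, which encodes C5, had -0.71 ± 0.40, but 0.26 without PBS-labelled replicates 1 and 2. Regulators were tested for 14 of 15 genes, with 2 higher at an unadjusted p under 0.05, against 4.72% of all tested genes. Clu, which encodes clusterin, averaged 203 ± 88.1 CPM in DT-labelled libraries and 97.6 ± 54.1 CPM in PBS-labelled libraries (1.05 ± 0.43, adjusted p = 0.562). Cfp, which encodes properdin, the stabiliser of the alternative convertase, averaged 15.2 CPM in DT-labelled libraries and 10.8 CPM in PBS-labelled libraries (0.49 ± 0.20, adjusted p = 0.565). Cr1l, which encodes the rodent regulator Crry, had a log2 fold change of -0.17, and 0.019 without PBS-labelled replicates 1 and 2 and DT-labelled replicate 1.

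Of the receptors, 9 of 10 were tested and 4 were higher at an unadjusted p under 0.05, against 4.72% of all tested genes. Itgax, the alpha chain of complement receptor 4, averaged 11.6 CPM in DT-labelled libraries and 6.03 CPM in PBS-labelled libraries (0.94 ± 0.21, adjusted p = 0.225, edgeR). C3ar1, the receptor of C3a, averaged 15.3 CPM in DT-labelled libraries and 10.1 CPM in PBS-labelled libraries (0.60 ± 0.17, adjusted p = 0.430). Itgam, the alpha chain of complement receptor 3, averaged 4.13 CPM in DT-labelled libraries and 2.77 CPM in PBS-labelled libraries (0.58 ± 0.17, adjusted p = 0.451), and 65.2% of its windows were shared with Gm49368.

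Calls depended on which libraries entered the fit. Without any single one of DT-labelled replicates 3, 4 or 5, or of PBS-labelled replicates 1, 2 or 6, edgeR called no member and no gene of the whole table higher (0%). Without PBS-labelled replicate 4 it called no member and 0.187% of genes higher. In all 8 such sets, DT-labelled replicate 1 included, the log2 fold changes of C1qa stayed between 0.66 and 0.79 and those of C1qb between 0.61 and 0.76. DESeq2 on all 8 libraries called 4 members, C1qa, C1qb, C1qc and C4b, where it called 1.06% of genes with an adjusted p higher. limma voom called C1qa, where it called 0.225% of genes higher. In fits chosen after seeing the data, without PBS-labelled replicates 1 and 2, edgeR called no member and none of its tested genes higher (0%), whereas DESeq2 called the same 4 members and 0.706% of its genes. When DT-labelled replicate 1 was left out as well, edgeR called C1qa and C1qb (0.264% of genes higher) and DESeq2 called C1qa, C1qb, C1qc, C4b and C2 (1.7% of genes higher). In that smallest set the log2 fold changes were 0.72 for C1qa, 0.70 for C1qb, 0.64 for C1qc, 0.76 for C4b, 0.59 for C2 and 0.77 for Cfb. By contrast they were 0.19 for C1ra, 0.09 for C1s1, 0.22 for C3 and 0.16 for Cfd.

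**Figure D4:**
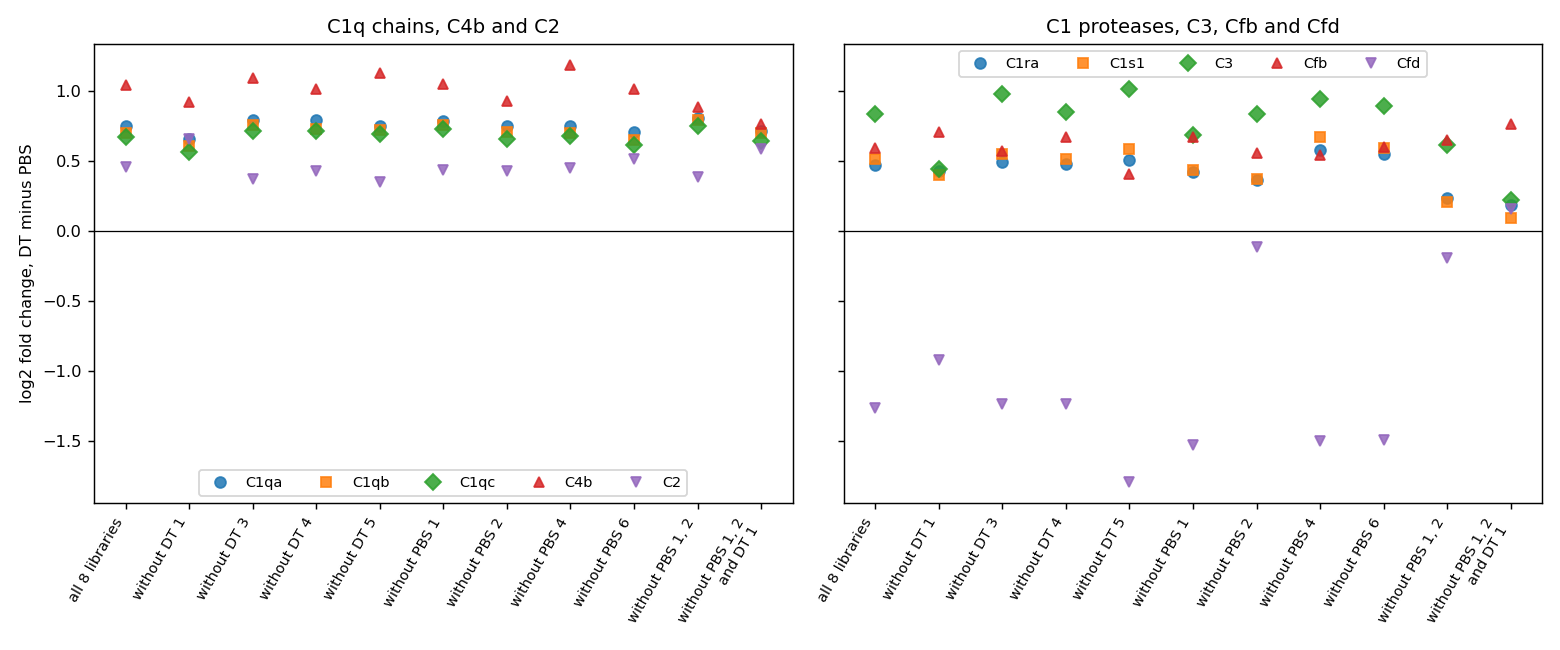
Log2 fold change, DT minus PBS, of each early complement gene with all 8 libraries and with libraries left out (horizontal axis), with C1qa, C1qb, C1qc, C4b and C2 in the left panel and C1ra, C1s1, C3, Cfb and Cfd in the right. C1qa, C1qb and C1qc stay between 0.56 and 0.81 in every set shown, C3 drops without DT-labelled replicate 1, and Cfd comes near 0 without PBS-labelled replicate 2.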

How the data were processed

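The 8 whole-uterus libraries (4 DT, 4 PBS) were read as 75-base pairs, per the labels' protocols. The authors deposited raw, unnormalized read counts per gene, made with the tools that the submitters' processing notes name without roles (Trimmomatic, HISAT2, SAMtools, featureCounts, DESeq2) on GRCm38. No source used here gives the strand setting or the treatment of ambiguous reads. Symbols came from GENCODE M21, which matched 49326 of 49585 identifiers. The 259 unmatched held 0.076% of counts and were kept in library sizes and tests. No pair of libraries agreed within sampling noise (chi-square per degree of freedom at least 28.81).

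edgeR 4.0.16 (R 4.3.3) was run on counts with filterByExpr (minimum count 10, total 15), TMM scaling and the robust quasi-likelihood F-test, treatment as the one term, with Benjamini-Hochberg adjustment over 22693 genes and calls at adjusted p under 0.05. The biological coefficient of variation was 25%. Code was tested on simulated data. Count ratios within libraries were compared by exact permutation (scipy 1.17.1). Alternatives were DESeq2 1.42.0, limma voom (limma 3.58.1), other scaling and filters, a replicate block and left-out libraries. Shared sequence was counted as 75-base transcript windows found in another gene.

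Members and lists were chosen with earlier results of these data known. All 10 members are named, with Foxp3 and Hbegf. Of each pathway or response list, the 3 genes of smallest unadjusted p are named, and for C1qa, C4b, C3 and Cfd the 5 most similar of 12867 genes (mean log2 CPM at least 1, pseudocount 0.01 CPM); for Cfd these also include Pou3f1, Myo18b and Gml2, and 1 gene near C4b is not reported here. Other genes (C4a, Gm16567, Gm20547, Serping1, single macrophage and adipocyte markers and the untested lectin and terminal genes) were named after their values were seen. The labels describe separate females, and p-values set the difference between groups against the variation between these libraries.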

Additional observations from a re-analysis of the deposited data

Results flagged for a closer look

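Outlying libraries were looked for with Dixon's ratio, the gap to the nearest library divided by the range of its group, in 30 groups of 4 libraries against its 95% critical value. Chance alone exceeds it in about 5% of groups, and 2 groups exceeded it. C1qc in DT-labelled replicate 1, at 60.9 CPM, lay far above the other DT-labelled libraries, which had 45.9, 45.7 and 47.5 CPM. Cfd in PBS-labelled replicate 2, at 7.52 CPM, lay far above the other PBS-labelled libraries, which had 1.15, 1.31 and 1.37 CPM. Without the first library the log2 fold change of C1qc was 0.56, and without the second that of Cfd was -0.12.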

How the results depend on the processing

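Against the 2 members called by edgeR (0.322% of genes higher), DESeq2 called 4 (1.06%) and limma voom 1 (0.225%). RLE size factors gave 1, library size alone 0 and a filter of at least 1 CPM in 4 libraries 1, which left Cfb untested. For these scaling and filter settings the share of all genes called was not counted. Leaving out each library in turn gave 0 to 4 called members, where 6 of these 8 fits called no gene of the table higher. Without PBS-labelled replicates 1 and 2, edgeR called 0 (0% of genes higher) and DESeq2 4 (0.706%). Without DT-labelled replicate 1 as well, DESeq2 called 5 (1.7%). These last 2 sets were chosen after seeing the data. Of the other complement genes, DESeq2 called 1 with all libraries (1.06% of its genes higher). With 3 libraries left out it called 3, Serping1, C3ar1 and Itgax (1.7%). In both sets edgeR called 0 of them (0.322% and 0.264% of genes higher). The causes of these changes were not tested. A replicate block called 0 members, with a log2 fold change of 0.74 for C1qa (adjusted p = 0.996, edgeR). Only the 2 shared numbers inform treatment in that fit, so it had little power and its lack of calls shows little. Averaged over the 2 same-numbered pairs, without a fit, the log2 ratio of C4b to C3 differed by -0.32, against 0.30 over all libraries. The share of all genes called with that block was not counted. Deviations of same-numbered libraries correlated at -0.58 for number 1 and 0.37 for number 4, and those of differently numbered libraries at -0.68 to 0.63. With only 2 same-numbered pairs these values cannot show whether animals were paired, and the labels do not say. With single libraries left out, the log2 ratio of C1s1 to C1ra was -0.0095 to 0.10, turning negative without DT-labelled replicate 1, and the difference of total counts was -3.46 to 1.56 in units of 1000000 counts, positive without DT-labelled replicate 4. Signs reversed without 3 libraries, by edgeR and DESeq2, for Cfd (0.16 and 0.15), C1s2 (-0.045 and -0.052), Masp1 (0.32 and 0.31), Fcna (-0.088 and -0.096) and Cr1l (0.019 and 0.011). For Masp2 they reversed without 2 libraries (-0.040 and -0.052) and without 3 (-0.19 and -0.20), and likewise for Hc (0.26 and 0.25, then 0.24 and 0.24). Scaling by library size alone put the median over all genes at a log2 fold change of 0.12. Low counts limit the precision of Cfb, with 32 to 75 reads per library.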

Other observations

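Complement genes left untested for low counts included liver-type lectins. Colec10, which encodes a collectin that can start the lectin pathway, had 2, 8, 4 and 8 reads in DT-labelled replicates 1, 3, 4 and 5, against 15, 60, 4 and 8 reads in PBS-labelled replicates 1, 2, 4 and 6. Mbl2, a mannose-binding lectin, had 0, 1, 0 and 0 reads in DT-labelled libraries and 6, 23, 0 and 1 reads in PBS-labelled libraries. Both were highest in PBS-labelled replicate 2 and next highest in PBS-labelled replicate 1, the libraries with the highest yolk sac sums (231 and 96.2 CPM). C8b had no read in any of the 8 libraries, and C9, the pore-forming terminal component, had 24, 4, 12 and 8 reads in DT-labelled libraries and 4, 7, 10 and 9 reads in PBS-labelled libraries.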
